A study of Mus musculus with 6 samples.

Results

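AP-1 is a family of transcription factors that bind DNA as pairs, and 10 of its genes were followed in IDG-SW3 bone cells treated with parathyroid hormone (PTH). The genes were the FOS members Fos, Fosb, Fosl1 and Fosl2, the JUN members Jun, Junb and Jund, and the related members Atf3, Batf and Batf3. They were chosen by name as the 10 matching gene entries of the 23700 in the deposited tables. Each of the 10 had 1 entry with a usable estimate in all 6 libraries, and 8 of them were among the 11900 entries with a mean of at least 1 FPKM (fragments scaled to transcript length and to the mapped fragments of the library) that were tested.

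IDG-SW3 is a single conditionally immortalized mouse line that carries a temperature-sensitive T antigen, induced by interferon gamma, and a GFP reporter driven by the Dmp1 promoter. Control cells (n = 3) received PBS, and PTH cells (n = 3) received 50 nM bovine PTH(1-34), the active fragment of the hormone, for 24 hours. Both groups had been differentiated for 28 days in medium with ascorbic acid and β-glycerophosphate, in which the line matures from osteoblast-like to osteocyte-like cells. Separate cultures are not stated in the labels for the 3 wells of a group. The p-values therefore reflect the spread among wells, and that spread may be technical.

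AP-1 proteins hold each other through a leucine zipper and touch DNA through the basic stretch beside it. FOS proteins need a JUN partner, whereas JUN proteins also pair among themselves, and ATF3, BATF and BATF3 pair with JUN proteins. Pairs of FOS and JUN favour the letters TGACTCA, and pairs with ATF or CREB proteins favour TGACGTCA, the cAMP response element. In mice, FOS is needed to form osteoclasts, and extra FRA-1 (the product of Fosl1), FRA-2 (Fosl2) or the short form of FOSB raises bone mass. The PTH receptor raises cAMP, and FOS is a classical early gene of that pathway.

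The promoters of 4 genes are shown because their responses differ: Jun and Junb, which had the largest rises below, Fos, the classical cAMP-responsive gene, and Atf3, which was not called. Sequences run 5′ to 3′ from 250 bases before to 50 bases after the transcription start, as RefSeq gives them on GRCm38.p6, a later build than the mm9 of the expression files. Capitals mark TGACG or TGACGT, the core of the cAMP response element, on either strand (ACGTCA is TGACGT read on the other strand), and in Jun the AP-1-like letters TGACATCA. The windows are chr4:95052173-95052472 for Jun, chr8:84978699-84978998 for Junb and chr1:191183284-191183583 for Atf3, all on the minus strand, and chr12:85473640-85473939 on the plus strand for Fos.
Jun: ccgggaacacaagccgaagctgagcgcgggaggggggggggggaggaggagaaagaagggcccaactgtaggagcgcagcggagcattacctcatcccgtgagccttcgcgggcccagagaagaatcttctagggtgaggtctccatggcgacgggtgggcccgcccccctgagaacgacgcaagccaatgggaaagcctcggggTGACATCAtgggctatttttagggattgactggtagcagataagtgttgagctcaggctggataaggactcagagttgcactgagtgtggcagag
Junb: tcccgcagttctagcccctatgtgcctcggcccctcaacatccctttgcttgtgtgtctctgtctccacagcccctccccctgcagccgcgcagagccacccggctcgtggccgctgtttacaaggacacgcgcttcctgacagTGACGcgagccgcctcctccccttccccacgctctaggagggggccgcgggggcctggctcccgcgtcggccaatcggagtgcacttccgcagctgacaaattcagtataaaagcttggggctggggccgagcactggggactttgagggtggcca
Fos: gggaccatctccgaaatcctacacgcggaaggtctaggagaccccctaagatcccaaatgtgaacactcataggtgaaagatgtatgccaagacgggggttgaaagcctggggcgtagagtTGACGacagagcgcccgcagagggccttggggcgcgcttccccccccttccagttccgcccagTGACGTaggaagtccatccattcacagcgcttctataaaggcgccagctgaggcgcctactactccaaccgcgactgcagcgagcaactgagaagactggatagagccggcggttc
Atf3: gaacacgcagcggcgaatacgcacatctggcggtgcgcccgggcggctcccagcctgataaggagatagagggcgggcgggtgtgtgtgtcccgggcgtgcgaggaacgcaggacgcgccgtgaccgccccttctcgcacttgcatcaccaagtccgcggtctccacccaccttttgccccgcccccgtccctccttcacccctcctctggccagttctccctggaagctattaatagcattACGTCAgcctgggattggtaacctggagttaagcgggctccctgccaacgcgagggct

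In Jun the marked letters began 45 bases before the start. In Fos the marks began 129 and 66 bases before the start, in Junb 106 and in Atf3 8. The core TGACG was searched on both strands in the 9 members with a RefSeq window and was found in 5 of them (Fos, Fosb, Junb, Batf and Atf3), against 20.8% of the 32851 promoter windows of the same length. The longer TGACGT, which contains TGACG, was found in Fos, Batf and Atf3, against 7.51% of all windows. The whole element TGACGTCA was in none of the 9 windows (1.79% of all), nor was TGACTCA (5.20% of all). TGACATCA was searched as the AP-1-like site of the Jun promoter, so its match in Jun was fixed beforehand. No other of the 9 windows held it (3.62% of all). Of the 5 genes with TGACG, Fos, Junb and Batf were called higher and Atf3 was not called. Fosb, under the filter, was higher in every PTH library. A link between these letters and the response was not tested. Such matches describe the letters in these windows and nothing else. Fosl1 has no entry in that table.

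Implied depth, from the error bounds deposited with each value, was 13958213 to 19043743 fragments in the Control libraries and 22479950 to 24481480 in the PTH libraries, so that every PTH library was deeper. Libraries of 1 group correlated with Pearson's r of 0.997 to 0.998 in log2(FPKM + 1), across loci of 300 bases or more, and libraries of different groups with 0.914 to 0.916. The type I collagen genes have no estimate in Control and were left out. By limma at an adjusted p below 0.05, 50.3% of the 11900 entries were higher with PTH and 23.5% lower, and the median change of all of them was 0.15 in log2(FPKM + 1). Under median-of-ratios scaling, which brings that median to -0.00, 3978 entries were higher and 4137 lower, and under quantile normalization 4609 and 3632, against 5988 and 2791 as deposited.

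Against this background, 6 of the 8 tested AP-1 genes were called higher (Fos, Fosl1, Fosl2, Jun, Junb and Batf), none was called lower, and Jund and Atf3 were not called. The share called in either direction was 73.8% over all entries, so a call by itself sets few genes apart. By size, 5 of the 8 were called higher by at least 2-fold, a size and direction reached by 4.41% of all entries, and the median change of the 8 was 1.25 against 0.15. The groups did not overlap in 6 of the 8, all with PTH higher, against 53.2% of all entries with PTH higher and 78.3% in either direction. Batf passed the filter only through its PTH libraries and so had to differ, Fosb and Batf3 did not pass it, and these counts and the median are a description of the tested members. RNA was taken from whole wells, so a change in the number of cells that express a gene and a change in RNA per cell cannot be told apart.

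**Figure D1:**
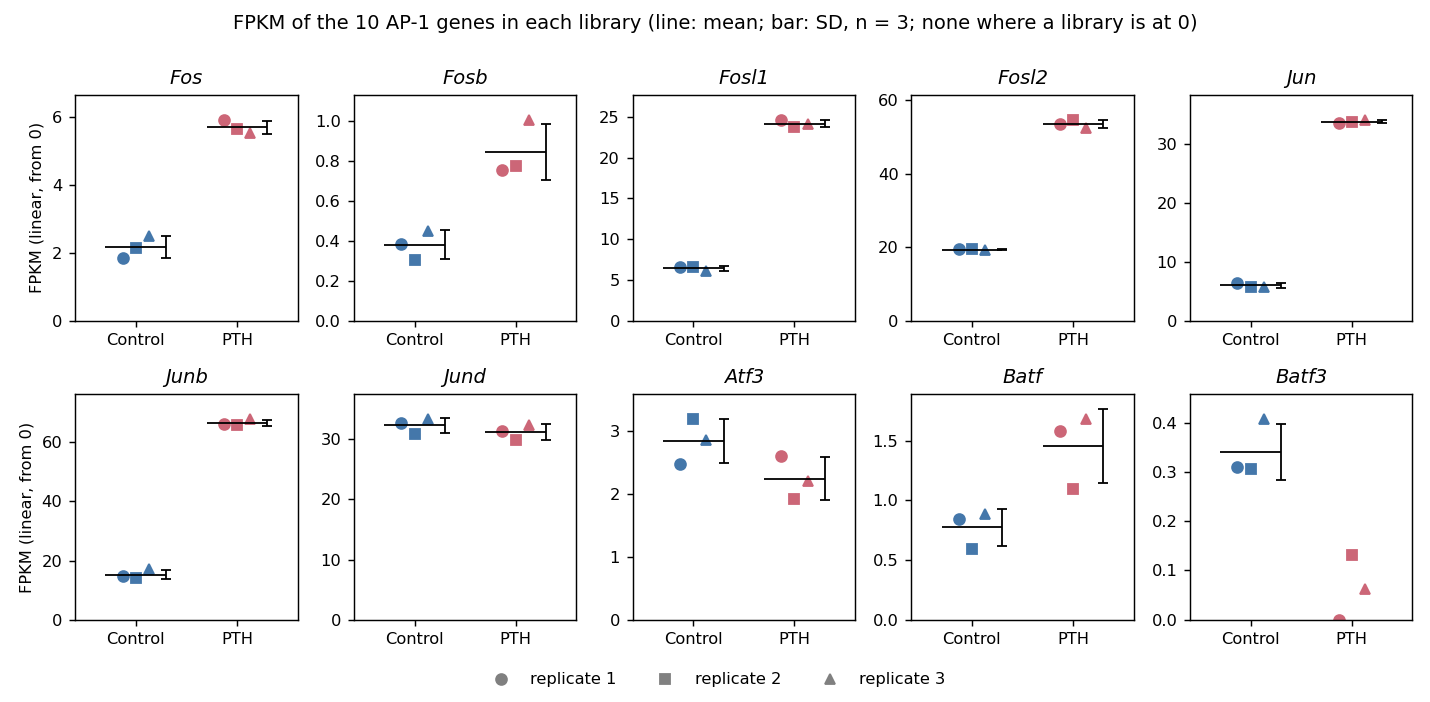
FPKM of each AP-1 gene (linear axis from 0, scaled to each gene) in the 3 Control (blue) and 3 PTH (red) libraries, with the mean as a line and the SD as a bar (n = 3), left out where a library is at 0. Jun sits between 5.77 and 6.47 in Control and between 33.7 and 34.1 in PTH, whereas the groups overlap for Jund and Atf3.

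The JUN genes carried most of the AP-1 transcript and split into a pair that rose and 1 that was not called. Jun (chromosome 4, 94715727 to 94718913 on mm9) encodes c-JUN, the strongest activator of the JUN proteins. Its level was 6.47, 5.80 and 5.77 FPKM in Control replicates 1, 2 and 3 and 33.7, 33.8 and 34.1 FPKM in PTH replicates 1, 2 and 3. The PTH libraries were nearly equal and each stood far above every Control library. The mean rose from 6.01 ± 0.396 to 33.9 ± 0.245 FPKM (SD, n = 3), a ratio of 5.63 and a change of 2.32 (SE 0.04, 95% interval 2.21 to 2.42) in log2(FPKM + 1), limma adjusted p = 8.40e-08. By the size of that change Jun ranked 131 among the 7835 tested entries with a rise.

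Junb (chromosome 8, 87500808 to 87502647) encodes a JUN protein that activates less strongly than c-JUN and can restrain it. It stood at 14.6, 14.1 and 17.1 FPKM in the Control libraries and at 66.2, 65.6 and 67.6 FPKM in the PTH libraries. Control replicate 3 was somewhat above the other two, and the groups were wide apart. The ratio of means was 4.35 and the change 2.06 (SE 0.07) in log2(FPKM + 1), with a limma adjusted p of 7.46e-07.

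Jund (chromosome 8, 73221638 to 73224515) encodes a JUN protein that is present in many resting cells. Its level was 32.7, 30.9 and 33.3 FPKM in Control and 31.4, 29.8 and 32.4 FPKM in PTH. The groups overlapped, and replicate 2 was the lowest in each. The change was -0.05 in log2(FPKM + 1) with a 95% interval of -0.15 to 0.06 (limma adjusted p = 0.349), so a rise of the size seen in Jun or Junb lies outside the interval. Under the scalings that reduce the median shift of all entries Jund was called lower, at -0.12 with libraries rescaled to a common sum (limma adjusted p = 0.0135), -0.21 under median-of-ratios scaling (limma adjusted p = 0.00133) and -0.19 under quantile normalization (limma adjusted p = 0.00231). GENCODE M21 places antisense genes across Jun and Jund, the neighbour Prdx2 across part of Junb and a small RNA gene across Atf3, on the opposite strand each time. The libraries do not record strand, so fragments of these partners could not be separated.

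Ratios within a library do not depend on a scaling factor of that library. Jun over Jund was 0.173 to 0.198 in the Control libraries and 1.05 to 1.13 in the PTH libraries, and Junb over Jund was 0.446 to 0.513 and 2.09 to 2.20. In Control, Jund was thus the most abundant JUN transcript in every library, and in PTH both others exceeded it. Junb over Jun went the other way, from 2.55 ± 0.366 to 1.96 ± 0.0188. Each of these ratios separated the groups without overlap, for which the exact two-sided permutation test gives p = 0.1, the smallest that 3 against 3 libraries allow.

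All 4 FOS genes were higher in every PTH library than in any Control library, as were 53.2% of all tested entries. The 3 that were tested were each called higher by at least 2-fold, against 4.41% of all entries. Fos (chromosome 12, 86814851 to 86818219) encodes c-FOS, whose transcript is short-lived and rises within minutes of many stimuli. It was at 1.85, 2.14 and 2.50 FPKM in Control and at 5.89, 5.64 and 5.52 FPKM in PTH after 24 hours. The lowest PTH library lay above the highest Control library by more than the spread within either group. The ratio was 2.63 and the change 1.08 (95% interval 0.90 to 1.27; limma adjusted p = 2.57e-05), and it was 0.95 under median-of-ratios scaling, short of 2-fold.

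Fosl2 (chromosome 5, 32438845 to 32460212), which encodes FRA-2, was the most abundant FOS gene in both groups. Its level was 19.4, 19.4 and 19.2 FPKM in Control and 53.4, 54.6 and 52.5 FPKM in PTH. Replicates lay close together, and the groups were far apart. The ratio of 2.77 corresponded to a change of 1.42 (SE 0.03) in log2(FPKM + 1), with a limma adjusted p of 8.45e-08.

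Fosl1 (chromosome 19, 5447698 to 5455938) encodes FRA-1, which lacks the strong activation domain of c-FOS. It was at 6.64, 6.54 and 6.07 FPKM in Control and at 24.6, 23.7 and 24.1 FPKM in PTH. This was the largest rise among the FOS genes, with groups that did not overlap. The ratio was 3.76 and the change 1.76 (SE 0.04), limma adjusted p = 1.36e-07. Its locus shares 2776 bases with Ccdc85b on the opposite strand, which went from 6.09 ± 0.398 to 16.6 ± 0.649 FPKM (n = 3; limma adjusted p = 1.54e-06). Fragments in the shared stretch cannot be assigned without strand, and the value of Fosl1 is uncertain to that extent.

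Fosb (chromosome 7, 19888045 to 19895394), a FOS gene with a long and a short protein form, was low. It had 0.386, 0.305 and 0.452 FPKM in Control and 0.755, 0.779 and 1.01 FPKM in PTH. Every PTH library was above every Control library, with a mean below the filter. The bounds imply 95 fragments in the Control libraries and 274 in the PTH libraries, a depth-scaled ratio of 2.20 (exact 95% interval 1.74 to 2.81, counting error only), and the exact two-sided permutation test over libraries gave its smallest possible p of 0.1. These gene-level values do not separate the protein forms.

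**Figure D2:**
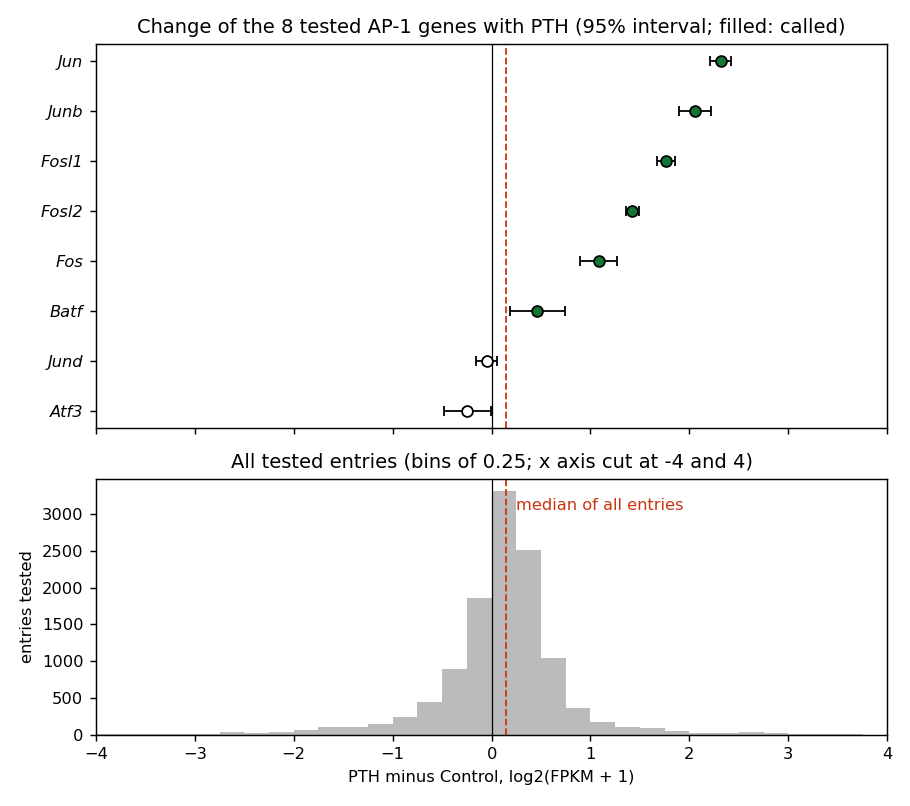
Top: change of the 8 tested AP-1 genes, PTH minus Control in log2(FPKM + 1), with 95% intervals and filled points where limma called the gene. Bottom: the number of tested entries in bins of 0.25, with the median of all entries (0.15) dashed in both. Fos (1.08), Fosl2, Fosl1, Junb and Jun (2.32) lie in the sparse right side of the distribution, and Batf (0.46), Jund (-0.05) and Atf3 (-0.25) lie nearer its middle.

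The ATF and BATF members did not move as a group. Atf3 (chromosome 1, 192994176 to 193007212), a stress-response factor that can repress its targets, was at 2.49, 3.19 and 2.87 FPKM in Control and at 2.61, 1.93 and 2.21 FPKM in PTH. PTH replicate 1 lay above Control replicate 1, so the groups overlapped. The change was -0.25 (95% interval -0.49 to -0.01; limma adjusted p = 0.0609). The call depended on the setting: limma gave an adjusted p of 0.0352 without Control replicate 1 (-0.32), 0.0264 without PTH replicate 1 (-0.33), 0.0469 with a common sum (-0.30) and 0.0184 under median-of-ratios scaling (-0.37), over a range of 0.0184 to 0.170 in all alternatives.

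Batf (chromosome 12, 87027670 to 87050037) encodes a factor known from lymphocytes, where it pairs with JUN proteins beside IRF factors. Its values were 0.843, 0.593 and 0.886 FPKM in Control and 1.58, 1.10 and 1.68 FPKM in PTH. Replicate 2 was the lowest in both groups, which did not overlap. The change was 0.46 (SE 0.12; limma adjusted p = 0.0103), or 0.83 with a pseudocount of 0.1. Batf passed the filter only through its PTH libraries, which limits that call. The bounds imply only 38 fragments in Control and 92 in PTH, a depth-scaled ratio of 1.85 (exact 95% interval 1.25 to 2.77, counting error only).

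Batf3, needed in mice for a class of dendritic cells, was near the limit of detection. Its locus, chromosome 1 from 192922293 to 192932822, held 0.310, 0.306 and 0.407 FPKM in Control, and it was listed at 0, 0.132 and 0.0625 FPKM in PTH. The bounds imply 12 fragments over the Control libraries and 3 over the PTH libraries. Control was 5.24 times PTH after scaling for depth (exact 95% interval 1.41 to 28.9, which covers counting error only and not the spread between wells), and the exact two-sided permutation test gave p = 0.1, the smallest possible.

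Batf and Batf3 are best known from immune cells, whose markers were examined beside them. None of 7 lymphocyte and dendritic cell markers reached the filter, Cd3e, Cd4 and Itgax were at 0 in all libraries, and the 7 together summed to 0.431 to 0.462 FPKM in Control and 0.180 to 0.273 in PTH. Of 9 leukocyte and osteoclast markers 4 were tested, 2 called higher and 2 lower, with sums of 273 to 286 and 309 to 320 FPKM that were mostly Ctsk, while Emr1 and Dcstamp were at 0 throughout. The 4 endothelial markers summed to at most 0.127 FPKM in any library, with Cdh5 and Tie1 at 0. Markers of the cultured lineage also differed between the groups. The 6 osteocyte markers summed to 1132 to 1206 FPKM in Control and 165 to 180.2 in PTH, with 4 of 5 tested lower and Pdpn higher. The PTH sum was mostly Pdpn, which went from a mean of 20.0 to 160 FPKM. The 4 others fell much further than the sum, Dmp1 from 827 to 3.64, Mepe from 208 to 1.61, Sost from 53.3 to 0.0941 and Phex from 60.4 to 7.51 FPKM. Of 5 osteoblast markers 4 were lower, with sums of 27356 to 27866 and 5286 to 6175 FPKM. All 6 adipocyte markers were lower (531.6 to 750.6 and 72.6 to 150.6 FPKM), as were 3 of 4 tested chondrocyte markers, with Sox9 higher (161 to 176 and 50.4 to 63.3 FPKM). The part of these cell states in the AP-1 changes was not tested.

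FPKM is scaled to transcript length, so the levels of different AP-1 genes can be set side by side within a library. In Control the order of levels was Jund, Fosl2, Junb, Fosl1, Jun, Atf3, Fos, Batf, Fosb and Batf3, where the ranges of Fosl1 and Jun, of Atf3 and Fos, and of Fosb and Batf3 overlapped. In PTH it was Junb, Fosl2, Jun, Jund, Fosl1, Fos, Atf3, Batf, Fosb and Batf3, and no neighbours overlapped. Junb thus took the first place from Jund, Jun moved above Jund, and Fos moved above Atf3. The 10 genes summed to 85.9 ± 2.64 FPKM in Control and 219 ± 2.19 FPKM in PTH, a ratio of 2.56.

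The FOS sum went from 28.3 ± 0.104 to 84.2 ± 0.882 FPKM, and the JUN sum from 53.6 ± 2.71 to 131.5 ± 2.52 FPKM. JUN over FOS therefore went from 1.89 ± 0.102 to 1.56 ± 0.0457, with JUN transcripts still in excess in every library. The ATF and BATF sum overlapped between groups (3.97 ± 0.283 and 3.77 ± 0.541 FPKM). As shares of all 10 genes, Jund went from 37.6% ± 0.568 to 14.2% ± 0.453, Junb from 17.8% ± 1.32 to 30.3% ± 0.258 and Jun from 7.01% ± 0.519 to 15.4% ± 0.121. The shares of Fos, 2.52% ± 0.330 and 2.59% ± 0.0916, overlapped. Of 30 such sums, shares and ratios 23 did not overlap, where 78.3% of all tested single entries did not overlap either. The 30 reuse the values of the same 10 genes and are not separate results. Each of the 23 had an exact permutation p of 0.1 (0.13 after Benjamini-Hochberg adjustment over the 30).

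**Figure D3:**
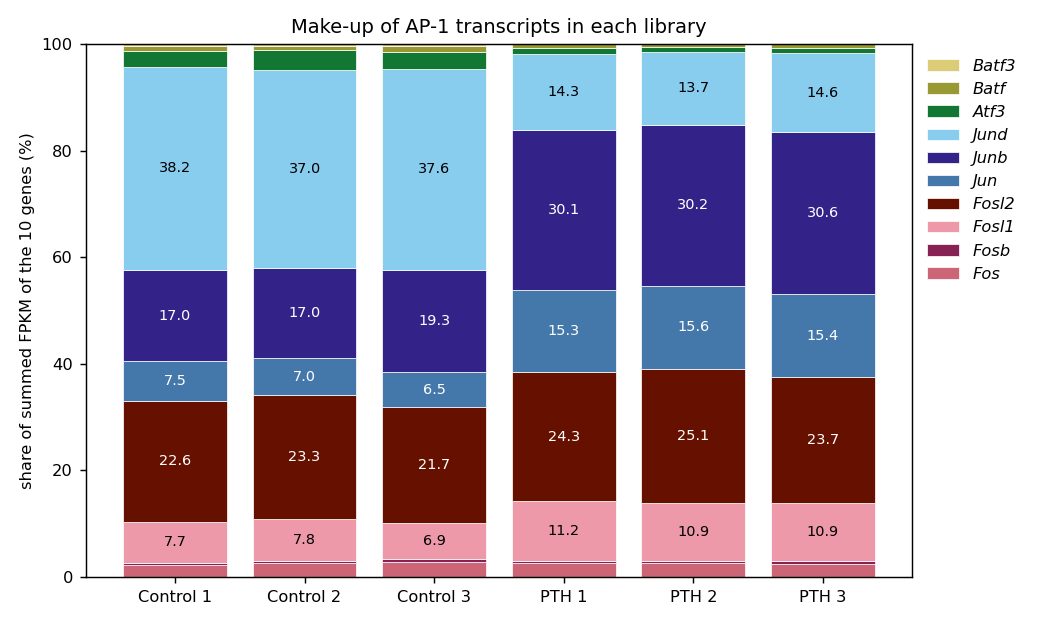
Share of each AP-1 gene in the summed FPKM of the 10 genes (%), 1 stacked bar per library. Jund is the largest block in the 3 Control libraries (37.0% to 38.2%) and Junb in the 3 PTH libraries (30.1% to 30.6%), with little variation within a group.

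Within the FOS genes the make-up shifted less. Fosl2 held 68.3% ± 0.276 of FOS transcript in Control and 63.6% ± 0.738 in PTH, and Fosl1 22.7% ± 1.03 and 28.7% ± 0.577. The shares of Fos, 7.65% ± 1.14 and 6.75% ± 0.182, overlapped. Within the JUN genes Jund went from 60.3% ± 0.853 to 23.7% ± 0.558 and Junb from 28.5% ± 1.72 to 50.5% ± 0.216. Each shift without overlap has the smallest exact permutation p, 0.1.

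Some members are neighbours on the chromosome. Fos and Batf lie 209 kb apart on chromosome 12, with Jdp2, a partner that represses AP-1, as the only entry between them. Jdp2 was at 24.7, 20.7 and 23.7 FPKM in Control and at 23.7, 21.6 and 23.7 FPKM in PTH, overlapping and not called (limma adjusted p = 0.971). Both of its neighbours were called higher, as were 50.3% of all tested entries, and Batf passed the filter only through its PTH libraries. Atf3 and Batf3 lie 61.4 kb apart on chromosome 1.

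Other bZIP genes, listed as known or possible partners of AP-1 members, had a lower median change than the AP-1 genes themselves. Of 14 further bZIP partners 13 were tested, 8 called higher, 1 lower and 4 not called, where 50.3% of all entries were called higher and 73.8% in either direction. The median change was 0.21. Nfil3, a repressor of the same class, went from 8.54 ± 0.291 to 20.2 ± 0.636 FPKM (change 1.15). Nfe2l2, which encodes the antioxidant factor NRF2, went from 48.3 ± 1.31 to 107 ± 2.30 FPKM (1.13), and Bach1, which competes with NRF2, from 5.67 ± 0.0832 to 11.3 ± 0.463 FPKM (0.88). Atf6, a sensor of endoplasmic reticulum stress, fell from 12.5 ± 0.271 to 8.24 ± 0.429 FPKM (-0.55). The limma adjusted p of these 4 was at most 3.84e-05. Across the 3 other scalings 5 or 6 partners were called higher and 1 to 3 lower.

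The MAF proteins are bZIP factors, some of which can pair with FOS or JUN, and 4 of the 6 genes examined were tested. All 4 were called higher, also under the 3 other scalings, with a median change of 0.47, against 50.3% of all entries called higher. Maff, a small MAF without an activation domain, rose from 5.01 ± 0.544 to 16.0 ± 1.34 FPKM (change 1.50). The other small MAF genes Mafg and Mafk rose from 13.5 ± 0.456 to 18.9 ± 1.20 FPKM (0.45) and from 4.29 ± 0.217 to 6.09 ± 0.323 FPKM (0.42). Maf, a large MAF gene, rose from 17.7 ± 0.604 to 25.3 ± 0.732 FPKM (0.49). The limma adjusted p was at most 3.13e-04 for these 4.

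Genes that act on AP-1 from above were mainly the MAP kinases, SRF with its cofactors, and factors that degrade JUN and FOS proteins. The list also held Rps6ka1, Rps6ka3, Cops5, Sirt1 and Men1, and 23 of its 24 genes were tested. Of these 14 were called higher, 2 lower and 7 not called, beside 50.3% higher and 23.5% lower over all entries, and the median change of 0.17 was close to that of all entries. Elk3, a ternary complex factor that acts with SRF, had the largest change, from 10.8 ± 0.215 to 28.5 ± 1.14 FPKM (1.33). Mkl1, an SRF cofactor, went from 7.45 ± 0.413 to 12.9 ± 0.275 FPKM (0.71), Mapk3, which encodes ERK1, from 45.2 ± 2.56 to 61.6 ± 1.46 FPKM (0.44), and Map2k7, a kinase of JNK, from 14.1 ± 0.528 to 19.2 ± 0.236 FPKM (0.42). Their limma adjusted p was at most 1.76e-04. The 3 other scalings called 10 or 11 of the 23 higher and 2 to 5 lower.

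Of 29 genes known as AP-1 targets 25 were tested, 16 called higher, 6 lower and 3 not called, where 50.3% of all entries were called higher and 23.5% lower. Their median change was 0.66 against 0.15 for all entries. By at least 2-fold 9 were higher, a size and direction that 4.41% of all entries reached, and 3 were lower, a direction which that share does not cover. Among the 9 is Il6, singled out after its values were seen, which passed the filter only through PTH (listed at 0.0891, 0 and 0.0936 FPKM in Control and at 2.27, 1.90 and 2.02 in PTH). Il11, a cytokine gene, went from 1.37 ± 0.0185 to 115.1 ± 11.6 FPKM (change 5.61). Ccl2, a chemokine gene, rose from 3.44 ± 0.718 to 42.6 ± 0.210 FPKM (3.31), and Plau, which encodes urokinase, from 6.99 ± 0.935 to 65.4 ± 1.36 FPKM (3.06). Ibsp, the bone sialoprotein gene, fell from 14703 ± 161 to 1100.4 ± 128.2 FPKM (-3.75). The limma adjusted p of these 4 was at most 9.03e-07, and under the 3 other scalings 16 or 17 targets were higher and 7 lower.

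**Figure D4:**
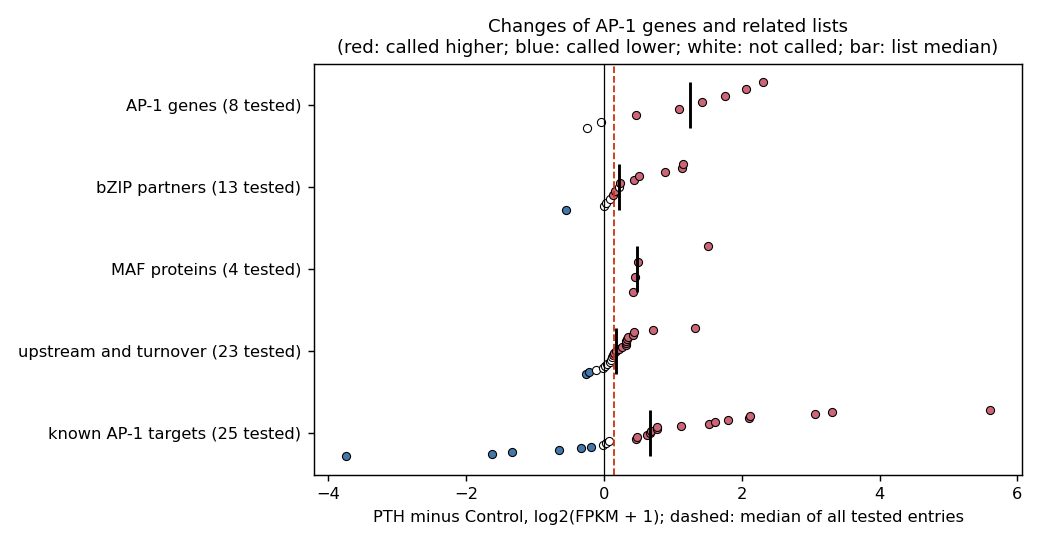
Change of each tested gene, PTH minus Control in log2(FPKM + 1), for the AP-1 genes and 4 related lists (red called higher, blue called lower, white not called), with a bar at the list's median and the median of all entries dashed. The AP-1 genes have the highest median (1.25), the upstream genes lie around the median of all entries (0.17 against 0.15), and the targets spread from -3.75 to 5.61.

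Genes with the most similar profile were looked up for the member of each subfamily with the highest mean FPKM over all 6 libraries, by Euclidean distance in log2(FPKM + 1) over the 6 libraries. Nearest to Fosl2 were Osbpl9 at a distance of 0.188, with 19.7 ± 0.524 FPKM in Control and 56.8 ± 1.75 in PTH, and Stard3nl at 0.201, with 21.0 ± 0.146 and 53.5 ± 1.37. For the JUN genes that member was Junb (mean 40.9 FPKM, Jund 31.8), although Jund was higher in Control. Nearest to Junb were Tubb2b at 0.420, with 16.7 ± 2.10 and 60.6 ± 2.90 FPKM, and Ier3 at 0.572, with 15.6 ± 0.252 and 53.3 ± 1.50. Nearest to Atf3 were Cyb5rl at 0.164, with 2.73 ± 0.153 and 2.34 ± 0.244 FPKM, and Lipt1 at 0.219, with 2.78 ± 0.159 and 2.24 ± 0.353. The measure ranks likeness of level as well as of change.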

How the data were processed

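Polyadenylated RNA of 6 wells of IDG-SW3 cells was made into unstranded libraries and sequenced on 1 lane of an Illumina instrument. The authors deposited gene-level FPKM for each library, with a lower and an upper bound. CASAVA 1.8, Cuffdiff, SAMtools, Bowtie2, TopHat and the build mm9 are named in the submitters' processing notes. For the gene annotation and strand setting, nothing is given in the sources used here. A deposited Cuffdiff comparison holds group FPKM, fold changes, p-values and q-values and was not used. Coordinates are 1-based.

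The distance from a value to its bound, read as 2 standard errors, gave the implied fragments. Its median was 8.15% to 9.57% of the value in Control and 6.98% to 7.27% in PTH. In R 4.3.3, limma 3.58.1 (lmFit, then eBayes with trend) was fitted to log2(FPKM + 1) of the 11900 entries whose mean FPKM reached 1, and an adjusted p (Benjamini-Hochberg) under 0.05 made a call. A change is a difference on that scale, which understates the change of low genes, and ratios are of mean FPKM. Single values took an exact two-sided permutation test over libraries. The fit was tested on simulated data.

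Members, lists and tests were chosen with earlier results of these data known. All 10 members are named, with up to 4 called genes of the largest change from each related list, the 2 entries nearest to the member of each subfamily with the highest mean over the 6 libraries, and Jdp2, Ccdc85b and the cell markers beside the results they touch. Alternatives were 3 scalings, a pseudocount of 0.1, minimum means of 0.1, 5 and none, the replicate number as a block, and leaving out each library. Of the genes first listed, 1 is not reported here.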

Additional observations from a re-analysis of the deposited data

How the results depend on the processing

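Fos, Fosl1, Fosl2, Jun and Junb stayed called higher in each alternative in which they could be tested, with changes of 0.95 to 1.36, 1.61 to 1.90, 1.26 to 1.46, 2.16 to 2.48 and 1.89 to 2.13. Batf also stayed called where tested, at 0.38 to 0.83, but it passed a minimum mean of 1 FPKM only through its PTH libraries. With a minimum of 0.1 FPKM or none its limma adjusted p was 0.00882 and 0.0175. Entries called numbered 6758 of 8705 (minimum mean of 5 FPKM) to 10154 of 18338 (no filter), against 8779 of 11900, and 8093 to 8484 without 1 library. AP-1 genes called in either direction numbered 4 to 8 (6 to 7 without 1 library) against 6 of 8. The 8 were 6 higher and 2 lower with a common sum and under median-of-ratios scaling, where 8367 and 8115 of 11901 entries were called. With a minimum mean of 0.1 FPKM or none they were 7 higher and 1 lower (Batf3), of 10 tested. Entries called were 9884 of 14504 at 0.1 FPKM, so most entries were called in these settings too. The 4 came from a minimum mean of 5 FPKM, which left 5 AP-1 genes to test. Jund was called lower at -0.12 with a common sum, -0.21 under median-of-ratios scaling and -0.19 under quantile normalization, and ranged from -0.08 to -0.02 without 1 library. Atf3 was called lower at -0.30 with a common sum, at -0.37 under median-of-ratios scaling and without replicate 1 of either group (range without 1 library -0.33 to -0.17), but not under quantile normalization. Fosb (0.42, limma adjusted p 0.00169 and 0.00298) and Batf3 (-0.33, limma adjusted p 0.00247 and 0.0031) were called where the minimum mean was 0.1 FPKM or none. Batf3 reached 0.1 FPKM only through its Control libraries (mean 0.341 FPKM, against 0.0648 in PTH). Its call rests on few fragments, 12 in Control and 3 in PTH by the bounds. Taken as shares of their own subfamily in place of all 10 genes, the differences were 22.1 percentage points for Junb (12.5 of all 10), 14.5 for Jun (8.42) and -0.895 for Fos (0.0723).

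With the replicate number as a block limma called 8600 entries and 6 AP-1 genes. Same-numbered Control and PTH libraries did not deviate together over the tested entries (r of -0.0789, 0.00157 and -0.0377 for numbers 1, 2 and 3). The labels give them only a shared number, and shared handling was not tested. No sample of Control correlated best with its own number. Depth limits Fosb, Batf and Batf3, whose bounds imply at most 113 fragments in any library, and 3 libraries a group limit every permutation test to p = 0.1.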
